A study of Mus musculus with 12 samples.

Results

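The genes described here encode the subunits of the mitochondrial respiratory chain and of ATP synthase, the enzymes of oxidative phosphorylation, in mouse pancreatic islets. Members were the protein-coding genes whose symbols match the naming of NADH dehydrogenase (Nduf with a subunit letter and number, and mt-Nd), succinate dehydrogenase (Sdha to Sdhd), cytochrome bc1 (Uqcr, Cyc1 and mt-Cytb), cytochrome c oxidase (Cox4 to Cox8 and mt-Co) and ATP synthase (Atp5 and mt-Atp). The rule found 99 of the 54532 genes listed, with 98 symbols, because Atp5o stands under 2 identifiers. No expression value entered the rule. A few members caught by name are not subunits of the enzyme whose name they carry, among them Atp5s, a coupling factor, and Cox7a2l, a protein of supercomplex assembly. Ndufa4 is now regarded as a subunit of complex IV and is counted here under complex I by its symbol.

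The respiratory chain passes electrons from NADH and succinate through complexes I, II, III and IV to oxygen, and complexes I, III and IV pump protons out of the matrix. ATP synthase, complex V, lets the protons back in and makes ATP. In beta cells the ATP made from glucose closes potassium channels and so starts insulin release. Both genomes contribute: 13 hydrophobic subunits are encoded in mitochondrial DNA, and the others, including every subunit of complex II, come from nuclear genes.

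RNA was sequenced from islets of male C57BL/6 mice, wild type (WT) or with a Sirt3 knockout selective for beta cells (KO), in 12 libraries that form 4 groups of 3. Sirt3 is a mitochondrial deacetylase that acts on many metabolic enzymes. The standard diet (STD) held 6.2% fat, and the high fat diet (HFD) gave 60% of calories from fat for 36 weeks. High fat feeding followed 4 weeks of standard food in WT and 6, 5 and 6 weeks in the libraries HFD KO 1, 2 and 3, so genotype and this earlier period cannot be told apart within the high fat groups. All 12 samples carry an age of 40 weeks, which the stated weeks of feeding exceed in the KO. The labels name no promoter that drives the deletion. They also do not state that libraries of one group are separate animals, so p-values measure the spread between these libraries only. Islets also hold other cells, and in whole islets fewer cells of a type and less RNA per cell cannot be told apart.

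Library totals ran from 16037709 to 20864920 counts. Values below are CPM, counts scaled to library size with TMM factors, unless they are named as FPKM, which also divides by gene length. Sirt3 lay at 9.03 to 11.5 CPM in STD WT, 5.85 to 6.59 in STD KO and 9.29 to 11.8 in HFD WT. In HFD KO it was 7.84, 11.5 and 6.20 CPM, so the library labelled HFD KO 2 stood within the WT range for the deleted gene. Tph1 was at 382 to 1148 CPM in the 6 libraries labelled KO, HFD KO 2 included, and at 0.696 to 1.33 in WT libraries other than STD WT 3, which held 43.5. Markers of beta cells, 8 genes, summed to 276050 to 404991 CPM in HFD WT and 246217 to 366054 in HFD KO. Markers of acinar cells, 8 genes, summed to 18419 to 29834 and 14341 to 18845 CPM in the same groups. All 6 striated muscle markers together reached 2.89 CPM at most. Their part in the results below was not tested.

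Of the 99 members, 94 had enough counts to be tested, 82 nuclear and 12 mitochondrial. The 5 others were Cox8b with 9 counts over all libraries, Cox7b2 with 11, mt-Nd4l with 2, and Cox8c and the second Atp5o identifier with 0. Cox7b2 and Cox8c are isoforms known from testis, and Cox8b is the isoform of heart and skeletal muscle.

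The nuclear subunits were abundant. Per length, averaged over the 12 libraries, Atp5b, the catalytic beta subunit of ATP synthase, was the highest at 846 FPKM. Among the nuclear genes, the highest of complex I was Ndufa1 at 236 FPKM, of complex II the flavoprotein Sdha at 340, of complex III the small subunit Uqcrq at 188, and of complex IV Cox6a1 at 398. This order depends on the length behind the FPKM, which is 771 bp for Sdha and 875 bp for Atp5b, where the exons annotated in GENCODE M21 cover 4126 and 4237 bp. All 82 nuclear members tested took between 0.679% and 0.817% of the counts in 9 of the libraries. They took 0.944%, 1.16% and 0.734% in HFD KO 1, 2 and 3.

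Cytochrome c oxidase has subunits with tissue-specific isoforms, and the islets used the general form of each. Cox4i1 averaged 266 FPKM, and its lung and hypoxia form Cox4i2 lay at 0.38% to 1.14% of it per library. Cox7a2 averaged 142 FPKM, and the muscle form Cox7a1 lay at 0.662% to 3.93% of it. Cox8a averaged 372 FPKM, and the muscle form Cox8b was at most 0.0995% of it. Ndufa4l2, a paralogue of Ndufa4 known as a target of hypoxia signalling, lay at 1.09% to 6.56% of Ndufa4. Cox6a2 departed from the others. This muscle and heart form averaged 54.7 FPKM and stood at 8.35% to 20.7% of the general form Cox6a1, in libraries where the muscle markers were near 0.

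The 13 mitochondrial mRNAs took 1.37% to 2.43% of the counts and fell into a high and a low set. In FPKM, mt-Co1 averaged 4645, mt-Cytb 2920, mt-Nd1 2031, mt-Nd5 1234, mt-Nd2 1163, mt-Nd4 996 and mt-Nd6 734. The other 6 were far lower: mt-Nd3 averaged 53.8, mt-Co2 7.95, mt-Atp8 6.22, mt-Atp6 5.88, mt-Co3 3.83 and mt-Nd4l 0.0311. All of these except mt-Nd6 are cut from the same long heavy-strand transcript, so levels of mt-Co1 and mt-Co3 that differ so widely were checked against the genome. Mouse chromosome 1 carries a copy of a stretch of mitochondrial DNA between bases 24611535 and 24616197 of GRCm38, annotated as a row of pseudogenes on the minus strand. The sequences below, from the GENCODE M21 transcripts, show the first 90 bases of 2 mitochondrial genes and of their chromosome 1 copies. Capitals mark a base at which member and copy differ.
mt-Co3: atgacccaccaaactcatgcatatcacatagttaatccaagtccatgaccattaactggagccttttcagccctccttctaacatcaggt
Gm28437: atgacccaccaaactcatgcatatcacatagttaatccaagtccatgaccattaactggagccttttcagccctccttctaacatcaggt
mt-Nd3: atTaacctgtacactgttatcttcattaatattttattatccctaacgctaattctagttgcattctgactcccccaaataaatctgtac
Gm28438: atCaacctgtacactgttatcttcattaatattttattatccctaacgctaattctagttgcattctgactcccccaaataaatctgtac

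The stretch of mt-Co3 lies at chrM:8607-8696 on the plus strand and that of Gm28437 at chr1:24613882-24613971 on the minus strand. The 2 do not differ there, and over all 783 aligned bases they had 0 differences. The stretches of mt-Nd3 and Gm28438 lie at chrM:9459-9548 and chr1:24613030-24613119, and their 1 difference is the only one in 345 aligned bases. Copies of mt-Co2 (Gm28661, 681 bases) and mt-Atp6 (Gm10925, 678 bases) had 0 differences as well. Of the 50-base words in each gene, 100% of mt-Co2, 99.9% of mt-Co3, 99.5% of mt-Atp6, 98.8% of mt-Nd4l and 98% of mt-Nd3 also occurred in another annotated gene. The share was 0% for mt-Cytb, mt-Nd1 and mt-Nd6, 7.6% for mt-Nd5 and 8.2% for mt-Nd2. It was intermediate for mt-Co1 (51.1%) and mt-Nd4 (62.2%), whose levels were high. The copies themselves held few counts, 59 for Gm28437 and 85 for Gm28661 over all 12 libraries. How the counts treat reads that match several places is not given in the sources used here. For mt-Atp8, which lies between mt-Co2 and mt-Atp6, no annotated gene shares a 50-base word. That search covered annotated transcripts only. The copy of mt-Atp6, Gm10925, ends at base 24614651 of chromosome 1, and that of mt-Co2, Gm28661, begins at 24614885. A copy of mt-Atp8 in or beside the bases between them would not have been found. The levels of mt-Co2, mt-Co3, mt-Atp6, mt-Nd3 and mt-Nd4l are therefore uncertain, and a part of the copies in them was not tested. The gene mt-Atp8 is kept with this uncertain set, because an unannotated copy was not searched for. Its level was low as well, and 21.1% of its exon bases are shared with mt-Atp6 on the same strand.

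**Figure D1:**
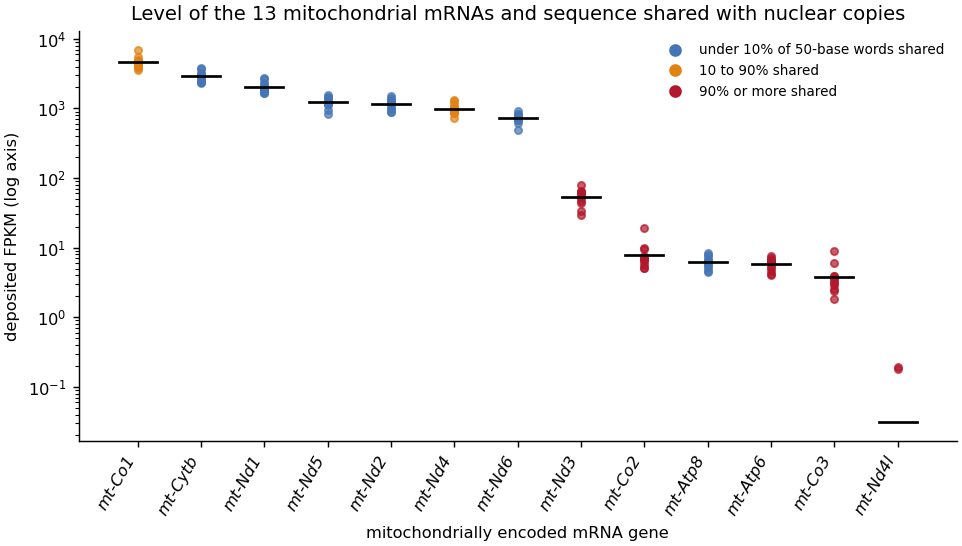
Deposited FPKM of the 13 mitochondrially encoded mRNA genes in each library (points, log axis) with the mean of 12 libraries (bars), coloured by the share of 50-base words found in another annotated gene. The 5 genes with 90% or more shared and mt-Atp8 lie below the 7 others, and mt-Nd4l was listed at 0 in 10 libraries, which have no point.

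On the standard diet, no subunit gene passed the test in the KO, and the sign of the small median difference depended on single libraries and on the fit. In KO against WT on the standard diet, 0 of 94 members passed an adjusted p of 0.05 (edgeR quasi-likelihood test, Benjamini-Hochberg over 16076 genes), where 1.71% of all genes did. At an unadjusted p under 0.05 the count was 0 of 94 beside 8.66% of all genes, and DESeq2 also called 0, beside 3.03% of all genes. The smallest adjusted p among members was 0.702, that of Atp5o. The median log2 fold change was -0.05 over the nuclear members, 24 of 82 above 0, beside -0.02 over all genes, of which 47% lay above 0, and it was -0.07 over the mitochondrial members. The nuclear median was -0.19 without STD KO 2, with 9 of 82 above 0, and 0.03 without STD KO 3, with 46 above 0. With limma on log2(FPKM + 1) it was 0.07, with 62 above 0, where the median of all genes was 0.10. The range of the nuclear members ran from -0.44 to 0.63.

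In KO against WT on the high fat diet, the median of the nuclear subunit genes was raised, but few passed the test one by one. As described below, the rise was in HFD KO 1 and HFD KO 2 and not in HFD KO 3, and short genes in general were raised as well. The median log2 fold change was 0.46 over the 82 nuclear members, 75 of them above 0, beside a median of 0.00 over all genes, of which 49.8% lay above 0. Of the 94 members tested, 3 were called higher, Ndufa4 and Cox5a among them, and 0 lower, where 7.4% of all genes were called, 3.9% as higher and 3.5% as lower. DESeq2 called 12 members, beside 12.7% of all genes. At an unadjusted p under 0.05, 32 members were higher and 0 lower, beside 11.9% and 12.4% of all genes. In 6 members, among them Ndufa4, Cox5a, Atp5g1, Ndufa3 and Ndufv3, every KO library lay above every WT library, beside 11.2% of all genes, and in 0 members the reverse held, beside 13.3%. These shares of called and separated members are below or near those of all genes, whereas the shares above 0 and at an unadjusted p are larger.

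**Figure D2:**
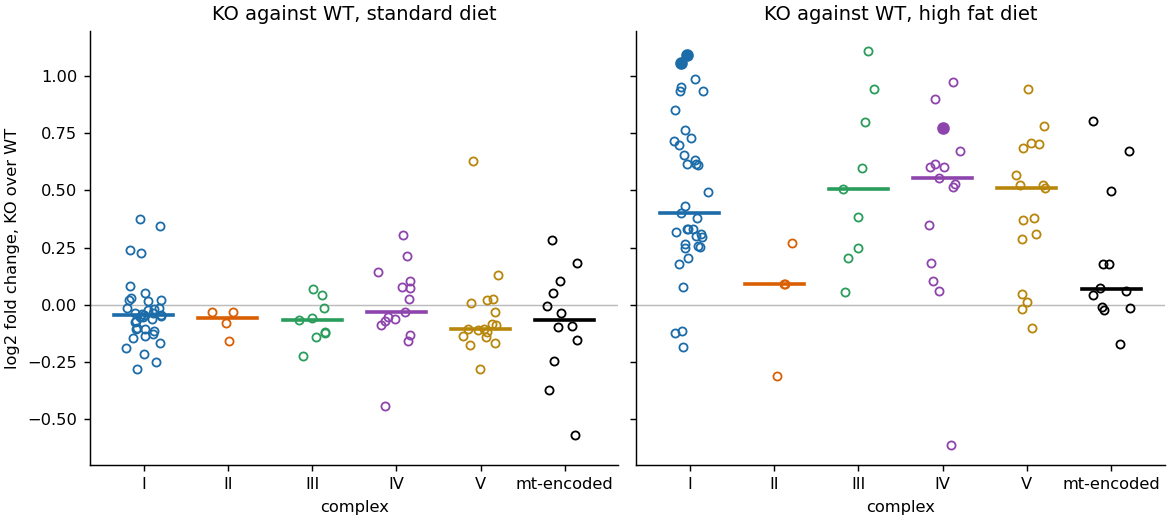
Log2 fold change of KO over WT for each member tested (points) on the standard diet (left) and the high fat diet (right), by complex, with nuclear and mitochondrially encoded genes apart. Bars are medians, and filled points passed an adjusted p of 0.05, which 3 members did, all on the high fat diet. The nuclear medians lie between -0.10 and -0.03 on the left and between 0.09 and 0.55 on the right.

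Ndufa4 (chr6:11900292-11907497 in GRCm38, minus strand) was at 69.8, 67.7 and 51.8 CPM in STD WT and 78.9, 88.8 and 72.5 in STD KO. It was at 73.9, 68.2 and 65.1 CPM in HFD WT and at 157, 199 and 86.7 in HFD KO. The HFD KO libraries lay above HFD WT, with a log2 fold change of 1.09 (SE 0.25, edgeR adjusted p = 0.0207), but HFD KO 3 was within the range of STD KO. Cox5a, a matrix-side subunit of cytochrome c oxidase (chr9:57521274-57532426, plus strand), was far lower, at 11.7 to 14.7 CPM in HFD WT. HFD KO held 23.2, 29.8 and 15.4 CPM, a log2 fold change of 0.77 (SE 0.21, edgeR adjusted p = 0.0486). Again HFD KO 3 stood apart from HFD KO 1 and 2 and within the range of STD KO, 15.1 to 18.8 CPM.

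The calls of Ndufa4 and Cox5a depended on the fit and on which libraries were in it. When the replicate number entered as a block, Cox5a was no longer called (log2 fold change 0.69, adjusted p = 0.0542), while Ndufa3, an accessory subunit, was (0.68, adjusted p = 0.0427). Ndufa4 was not called without HFD KO 1 (0.0840), HFD KO 2 (0.0697), HFD WT 1 (0.0509) or HFD WT 3 (0.108), nor when only the high fat groups were fitted (0.110). Cox5a was called in only 1 of the 12 fits that left out a library, the one without HFD KO 3. Without HFD KO 3, 51 members were called higher, with 18.1% of all genes called in either direction. Without HFD KO 2, the library with WT-like Sirt3, 1 member was called, beside 4.75% of all genes, and the median of the nuclear members was 0.17.

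**Figure D3:**
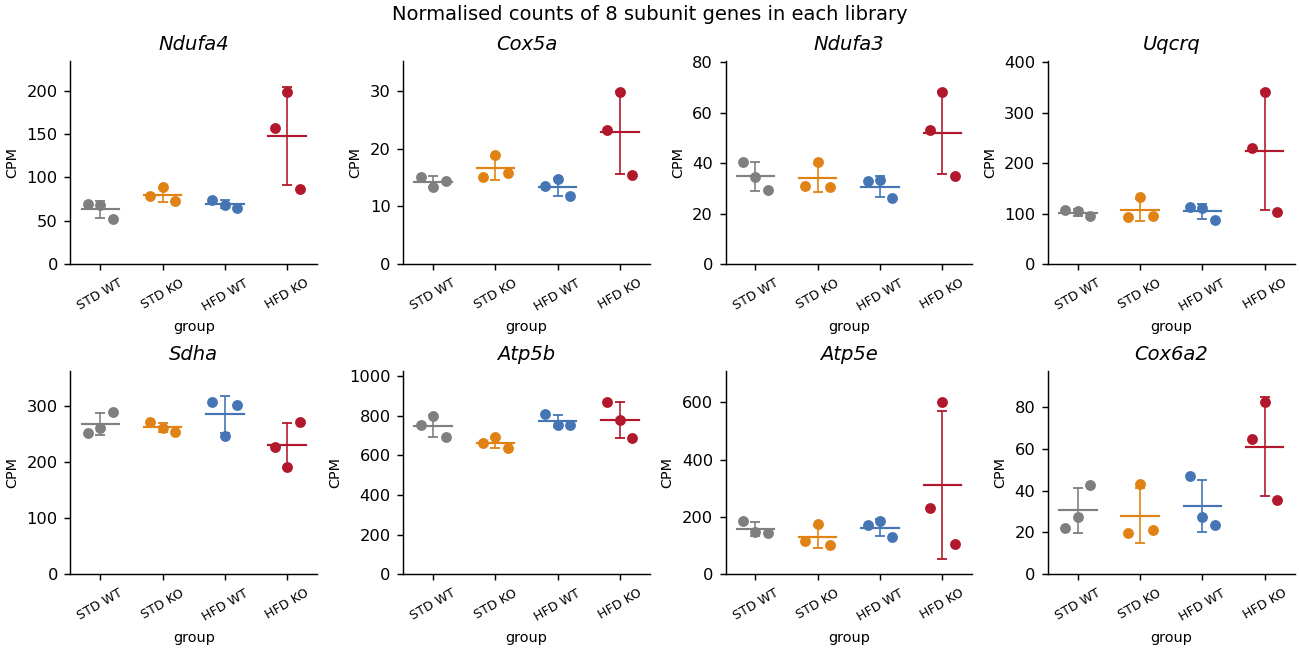
CPM of 8 members in every library, replicates 1, 2 and 3 from left to right in each group, with group mean and SD (n = 3, each axis starting at 0). In HFD KO the third library lies below the others for Ndufa4, Cox5a, Ndufa3, Uqcrq, Atp5e, Atp5b and Cox6a2, and above them for Sdha.

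The HFD KO libraries did not move together. Relative to each gene's mean over 12 libraries, the median nuclear member lay 0.44 log2 units higher in HFD KO 1 and 0.75 higher in HFD KO 2, but at -0.23 in HFD KO 3. In the 9 other libraries it lay between -0.33 (STD KO 3) and 0.09 (STD KO 2). Of the 82 nuclear members, 78 were above their mean in HFD KO 1, 78 in HFD KO 2 and 8 in HFD KO 3. HFD KO 2 was the highest library for 68 members. The raised median of the HFD KO group therefore came from 2 of its 3 libraries. Among the HFD KO libraries, Gcg, Ins1, Ins2 and Iapp were also lowest in HFD KO 3. The 4 alpha cell markers, Gcg first among them, summed to 31518, 35478 and 13113 CPM in HFD KO 1, 2 and 3 and to 19582 to 23610 in HFD WT. The 8 beta cell markers summed to 362672, 366054 and 246217 CPM in HFD KO 1, 2 and 3, nearly all of it from Ins1, Ins2 and Iapp. Other beta cell markers were not ordered so. Mafa (332, 380 and 502 CPM), Slc2a2 (366, 232 and 408) and Nkx6-1 (254, 225 and 350) were highest in HFD KO 3, and Ucn3 and G6pc2 followed neither order. In STD WT 2 the alpha markers summed to 35018 CPM, with the median nuclear member at -0.10. The part of these cell types in the result was not tested.

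Short genes in general were ordered alike over these 3 libraries. All genes from 500 bp to under 1000 bp had medians of 0.23, 0.45 and -0.13 in HFD KO 1, 2 and 3, and all genes of 4000 bp or more had -0.18, -0.48 and 0.05. The length used here is the one implied by the deposited FPKM, and it is short for this family: the median nuclear member had 746 bp, beside 1799 bp over all genes tested.

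**Figure D4:**
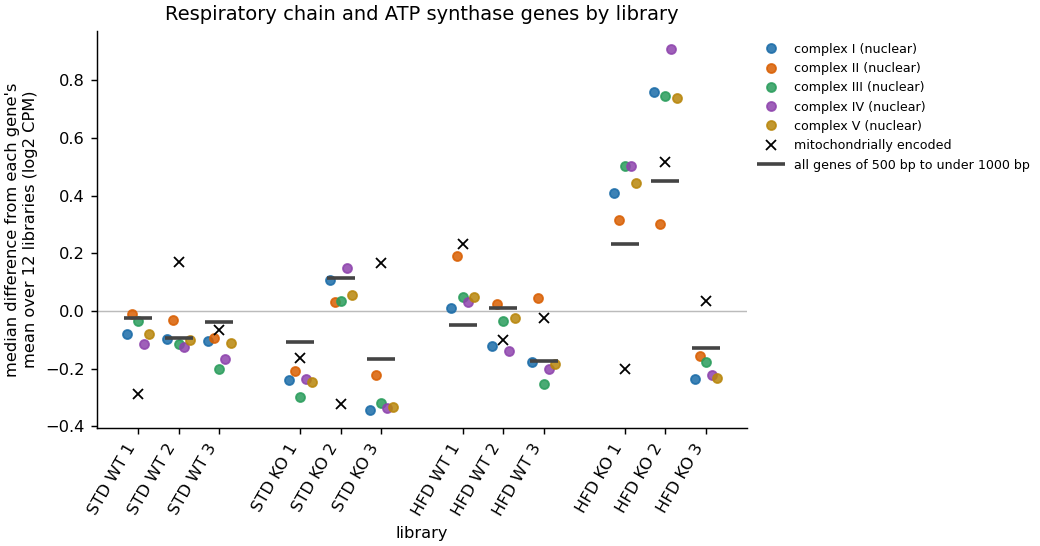
Median difference of the nuclear members of each complex, of the mitochondrially encoded members and of all genes from 500 bp to under 1000 bp from each gene's mean over 12 libraries, in log2 CPM. HFD KO 1 and 2 stand above the other libraries for the nuclear members and for short genes in general, and HFD KO 3 does not.

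Across genes, the fold change of KO over WT on the high fat diet fell with length, with a Spearman rho of -0.31 over the 16076 genes tested and -0.29 over the 82 nuclear members, genes that share the same libraries. By the length of annotated exons, rho was -0.28 and -0.18. In the class from 500 bp to under 1000 bp, 53 nuclear members had a median log2 fold change of 0.40 and all 2253 genes of the class 0.26, and 38 of the 53 lay above that class median. Under 500 bp the medians were 0.67 for 11 members and 0.48 for all genes, and from 1000 bp to under 2000 bp they were 0.30 for 16 members and 0.05 for all genes. With offsets that follow gene length in each library, the median of the nuclear members was 0.15 rather than 0.46, with 60 of 82 above 0. With offsets that follow the length of annotated exons it was 0.28, with 68 of 82 above 0. With the offsets for gene length 5 members of 94 were called, beside 8.42% of all genes, Ndufa4 among them at a log2 fold change of 0.73 (SE 0.14, edgeR adjusted p = 0.00881). With both the length offsets and HFD KO 2 left out, the median of the nuclear members was 0.06, and 2 members were called, Ndufa4 among them (0.68, adjusted p = 0.0312), beside 5.79% of all genes.

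**Figure D5:**
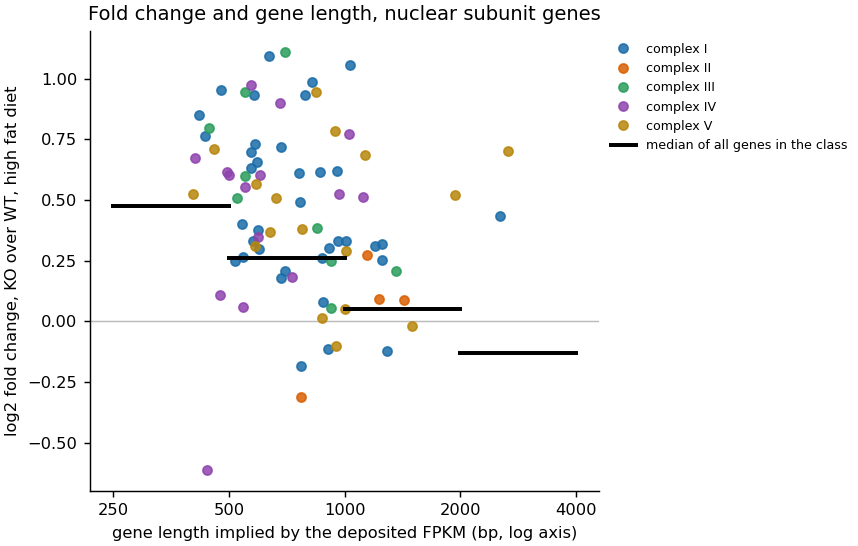
Log2 fold change of KO over WT on the high fat diet for the nuclear members (points, by complex) against gene length on a log axis, with the median of all genes in each length class (black lines). The class medians fall from 0.48 under 500 bp to -0.13 from 2000 bp to under 4000 bp, and 14 of the 16 members from 1000 bp to under 2000 bp lie above theirs.

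Within complexes I, III and V, the core subunits had smaller median fold changes than the other nuclear members. These sets by role were drawn up after the values were known, and by the length implied by the FPKM the core subunits are encoded by longer genes. By annotated exons this did not hold in complex V, where the F1 set had a median of 1928 bp and the members outside F1 and the c-ring one of 2039 bp. In complex I, the 7 nuclear core subunits had a median log2 fold change of 0.21 on the high fat diet at a median length of 953 bp, and the 30 other nuclear members 0.46 at 659 bp. Among the core, Ndufs1, the largest iron-sulphur subunit, was at -0.12 and the NADH-binding Ndufv1 at -0.11. Ndufa9, beside the quinone site, was at 0.31 (adjusted p = 0.174). Ndufa7, an accessory subunit, was at 0.95 (adjusted p = 0.217). It was at 99.1 and 237 CPM in HFD KO 1 and 2 and below every HFD WT library in HFD KO 3.

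Complex II, which links the tricarboxylic acid cycle to the chain and has no mitochondrially encoded subunit, had the smallest median, 0.09 over its 4 members. By the length implied by the FPKM, Sdhb, Sdhc and Sdhd have 1146, 1428 and 1231 bp, a class in which all genes had a median of 0.05. Sdha has 771 bp, and all genes of its class had a median of 0.26. Sdha and Sdhb moved in opposite directions. Sdha was at 307, 247 and 302 CPM in HFD WT and at 227, 191 and 272 in HFD KO, a log2 fold change of -0.31 (SE 0.15, adjusted p = 0.230). The groups overlapped, and in HFD KO the library lowest for Sdha, HFD KO 2, was the highest for most other members. Sdhb, the iron-sulphur subunit, was at 0.27, and the membrane anchors Sdhc and Sdhd were at 0.09 each.

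Complex III had a median of 0.51 over 9 nuclear members. Its 5 small subunits, Uqcrq, Uqcrh, Uqcr10, Uqcrb and Uqcr11, had a median of 0.80 and none passed the test. Uqcrq was at 113, 111 and 87.8 CPM in HFD WT and 230, 341 and 104 in HFD KO, so HFD KO 3 overlapped with HFD WT (log2 fold change 1.11, SE 0.33, edgeR adjusted p = 0.0685). Cytochrome c1, Cyc1, was at 0.25, the Rieske protein Uqcrfs1 at 0.21 and the core protein Uqcrc1 at 0.06, none of them past the test.

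Complex IV had a median of 0.55 over 15 nuclear members. Beside Cox5a, the small subunit Cox7b was at 0.97 (adjusted p = 0.0861), Cox4i1 at 0.60 (0.191), Cox5b at 0.55 (0.206), Cox7a2 at 0.62 (0.131), Cox6a1 at 0.35 (0.305) and Cox8a at 0.06 (0.883). Cox6a2 was at 47.0, 27.5 and 23.7 CPM in HFD WT and 65.0, 82.6 and 35.6 in HFD KO (log2 fold change 0.90, adjusted p = 0.218). It also varied widely within the other groups, from 19.8 to 43.1 CPM in STD KO. The lowly expressed isoforms Cox4i2 and Cox7a1 were at 0.18 and -0.61, with SEs of 0.48 and 0.57.

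ATP synthase had a median of 0.51 over 17 nuclear members. Its 5 subunits of the F1 head and central stalk had a median of 0.05, and the 9 members outside the F1 part and the c-ring one of 0.52. The alpha and beta subunits that form the catalytic head were at -0.02 (Atp5a1) and 0.01 (Atp5b). Atp5e, the smallest subunit of the central stalk, was at 230, 601 and 104 CPM in HFD KO and 130 to 186 in HFD WT (log2 fold change 0.94, SE 0.50, adjusted p = 0.274), with HFD KO 3 below every HFD WT library. The c-ring genes Atp5g1, Atp5g2 and Atp5g3, which encode the same mature protein, were at 0.70, 0.37 and 0.38, and Atp5g1 was separated between the high fat groups. Atp5k, a membrane subunit at the dimer interface, was at 0.52 (adjusted p = 0.293). Atp5o, the peripheral stalk subunit OSCP, was listed at only 1.43 to 1.85 CPM in HFD WT, and its value is uncertain because 47.9% of its exon bases are shared with other annotated genes.

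Among the mitochondrially encoded subunits, the median log2 fold change on the high fat diet was 0.07 over 12 genes. It was 0.03 over the 6 that share under 10% of their words with annotated genes. Without mt-Atp8, one of these 6, it was -0.01. The mt-Cytb values were 3926, 3238 and 3330 CPM in HFD WT and 2942, 4694 and 3406 in HFD KO, and those of mt-Co1 were 8175, 6658 and 7316 against 6428, 9466 and 6909. Both groups overlapped, with HFD KO 1 the lowest and HFD KO 2 the highest of the high fat libraries for each. The log2 fold changes were 0.18 for mt-Nd1, -0.01 for mt-Nd2, 0.06 for mt-Nd3, 0.18 for mt-Nd4, -0.17 for mt-Nd5 and -0.01 for mt-Nd6. They were 0.80 for mt-Co2, 0.67 for mt-Co3, -0.02 for mt-Atp6 and 0.50 for mt-Atp8, all of the uncertain set. The mt-Co2 values were 5.20, 4.23 and 3.60 CPM in HFD WT and 4.14, 14.3 and 4.31 in HFD KO. Those of mt-Co3 were 2.5, 2.9 and 1.9 against 2.7, 7.7 and 1.4. For both genes, HFD KO 2 was the only HFD KO library above every HFD WT library. None of the 12 passed the test, and the difference between nuclear and mitochondrial members was not tested.

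High fat feeding of WT mice changed 0 members and 0 of all genes at an adjusted p of 0.05 (edgeR), a share of 0%. At an unadjusted p under 0.05 the counts were 0 of 94 beside 4.74% of all genes, and DESeq2 called 0 members, beside 0.305% of all genes. The median log2 fold change of the nuclear members was 0.03, with 56 of 82 above 0 beside 51.5% of all genes. It was -0.04 without HFD WT 1, with 31 above 0, and 0.09 without HFD WT 3, with 71 above 0, so its sign was not settled. With limma on log2(FPKM + 1) it was -0.01, where the median of all genes was -0.03. In KO mice the same feeding gave a median of 0.51 over the nuclear members, 79 of 82 above 0, beside -0.03 over all genes, of which 47% lay above 0. Of the members, 0 passed an adjusted p of 0.05, beside 0.0435% of all genes, while 44 of 94 were higher and 0 lower at an unadjusted p under 0.05, beside 7.69% and 4.81% of all genes. DESeq2 called 1 member, beside 0.993% of all genes. This comparison shares its HFD KO libraries with the one above. Without HFD KO 3, 44 members were called here, with 5.11% of all genes, and the median of the nuclear members was 0.76. Without HFD KO 2 it was 0.27, with the offsets for gene length 0.24, and with those for annotated exon length 0.31. With limma on log2(FPKM + 1) it was 0.29, where the median of all genes was -0.17. In the interaction, the difference between the genotype effects on the 2 diets, 0 members and 0 of all genes passed (edgeR, 0%), with 8 members higher and 0 lower at an unadjusted p under 0.05, beside 3.78% and 4.12% of all genes, and 1 member called by DESeq2, beside 0.194% of all genes.

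Genes that serve the chain were read from lists of other genes. Of 45 assembly factors tested, 0 were called in KO against WT on the high fat diet, beside 7.4% of all genes. Their median log2 fold change was 0.20, with 35 above 0, beside 49.8% of all genes. Among 18 electron carriers and entry points, 0 were called higher and 1 lower, beside 3.9% and 3.5% of all genes. The latter was Gpd2, the mitochondrial glycerol phosphate dehydrogenase that hands electrons to the chain from cytosolic NADH. It was at 135, 96.4 and 134 CPM in HFD WT and at 46.7, 28.1 and 53.5 in HFD KO (log2 fold change -1.51, edgeR adjusted p = 0.00992). Among 20 genes of mitochondrial DNA and RNA, 0 were called higher and 1, Lrpprc, lower, beside the same shares of all genes. Lrpprc, which stabilises mitochondrial mRNAs, was at 64.9, 60.3 and 75.8 CPM in HFD WT and at 43.7, 43.5 and 46.5 in HFD KO (-0.59, edgeR adjusted p = 0.0157). On the standard diet it was at 47.2, 43.5 and 43.0 CPM in WT and at 56.6, 43.8 and 52.8 in KO. The HFD KO values of Lrpprc thus lay within the range of STD WT, and HFD WT was the highest group. For Gpd2 and Lrpprc, all 3 HFD KO libraries lay below HFD WT, HFD KO 3 included, which also held for 13.3% of all genes.

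Of the 10 nuclear regulators of respiratory genes, 0 were called higher and 1, Ppargc1a, was called lower, beside 3.9% and 3.5% of all genes. Ppargc1a encodes PGC-1alpha, the coactivator known for raising respiratory gene transcription. It was at 11.3, 7.09 and 11.1 CPM in HFD WT and at 4.45, 2.21 and 3.30 in HFD KO, a log2 fold change of -1.56 (edgeR adjusted p = 0.00795). On the standard diet Ppargc1a was not called. There too every KO library lay below every WT library, at 3.45, 2.33 and 3.27 CPM beside 6.55, 6.77 and 5.34, which held for 7.32% of all genes. It was lowest in HFD KO 2, the library in which most nuclear members were highest. The median of these regulators in KO against WT on the high fat diet was -0.28, with 2 of 10 above 0. Long genes in general were lower in that comparison. Their medians were -0.13 from 2000 bp to under 4000 bp and -0.27 at 4000 bp or more, where 27.8% lay above 0. Genes of these lists, those called lower included, were not set beside genes of their own length. Nrf1 itself, a transcription factor of many respiratory genes, was at 0.10 (adjusted p = 0.673) and Gabpa at -0.23 (0.473). None of the 6 genes tested for proton leak and nucleotide exchange was called. In the other comparisons 0 genes of these lists were called, beside 1.71% of all genes for KO against WT on the standard diet and at most 0.0435% in the rest.

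Promoter sequence was read for the nuclear members, most of which were highest in the same library, HFD KO 2. The RefSeq table for GRCm38.p6 held the 250 bases before the start of 66 of the 85 nuclear symbols. The letters GCGCNTGCG, a core of sites known for NRF1, were on either strand in the window of 16 of these 66 members, 24.2%, and of 5.9% of 27025 genes. CCGGAAG, the core of ETS factors such as GABP, was in 12 of 66, 18.2%, and in 7.8% of all. AAGATGGCG, known for YY1, was in 1 of 66, 1.5%, and in 0.7% of all. Matches of different motifs overlapped in 0 members. The windows of Ndufa4 and Cox5a, both called on the high fat diet, are shown with that of Ndufb4, which among members with the NRF1 letters had the highest fold change, 0.93 on the log2 scale. Only bases outside annotated exons are printed, and capitals mark an NRF1 match.
Ndufa4: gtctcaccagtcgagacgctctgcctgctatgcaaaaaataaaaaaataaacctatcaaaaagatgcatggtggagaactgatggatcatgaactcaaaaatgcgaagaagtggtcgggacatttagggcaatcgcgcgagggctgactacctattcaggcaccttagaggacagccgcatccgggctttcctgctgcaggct
Cox5a: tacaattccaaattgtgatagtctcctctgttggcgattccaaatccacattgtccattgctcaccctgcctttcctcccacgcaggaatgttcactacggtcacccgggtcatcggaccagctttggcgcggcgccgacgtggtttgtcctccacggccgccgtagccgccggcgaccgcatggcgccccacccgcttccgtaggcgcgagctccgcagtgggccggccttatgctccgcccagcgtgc
Ndufb4: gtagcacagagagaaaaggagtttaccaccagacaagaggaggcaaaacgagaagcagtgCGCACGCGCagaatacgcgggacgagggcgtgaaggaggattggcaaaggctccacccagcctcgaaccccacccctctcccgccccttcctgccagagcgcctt

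The stretch of Ndufa4 is chr6:11907498-11907700 on the minus strand, that of Cox5a chr9:57520982-57521231 on the plus strand and that of Ndufb4 chr16:37654454-37654618 on the minus strand. In the first 2 none of these letters occurs. The NRF1 letters also stood before Sdha, the member of complex II that was lower in HFD KO (log2 fold change -0.31), and before Atp5c1 (0.29) and Ndufa11 (0.73).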

How the data were processed

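RNA of 12 islet libraries, 3 in each of 4 groups, was sequenced. The authors deposited raw read counts per gene for each library, and FPKM values for the same genes. Per the submitters' processing notes, TopHat2, Cufflinks and DESeq were used, with reads on mm10. No annotation, counter, strand setting or rule for reads with several matches was given in the sources used here. The deposited FPKM equalled count over gene length and library total in all 221461 values above 0.1 that were compared (relative tolerance 1e-05), so both files hold the same measurement. That length is what is called gene length.

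Counts were tested with edgeR 4.0.16 (R 4.3.3, limma 3.58.1). The filterByExpr filter (minimum count 10, minimum total 15) left 16076 genes, libraries were scaled by TMM, and quasi-likelihood models with 1 mean per group gave 5 contrasts. Benjamini-Hochberg adjustment ran over all 16076 genes, with a threshold of 0.05, and the biological coefficient of variation was 0.307. Between replicates, counts differed by a chi-square of 27.8 to 110.5 per degree of freedom, so replicate spread rather than counting error limits the precision. The fits were also run on simulated counts. Libraries were drawn there independently, so that run does not cover libraries of a group that diverge or deviate in pairs.

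Alternatives were DESeq2 1.42.0 and its size factors, other filters, limma-trend on log2 FPKM (pseudocounts of 1 and 0.1), the compared groups alone, a replicate block, totals without insulin and mitochondrial genes, offsets following gene length (loess, span 0.5), and leaving libraries out. In the high fat groups, KO and WT libraries of the same number deviated together (r = 0.516, 0.388 and 0.330 across genes), and those of different numbers had r from -0.379 to 0.0414. In other comparisons, libraries of different numbers reached values as large, 0.489 for HFD WT 2 with STD WT 1 and 0.353 for STD KO 2 with STD WT 3. What the number marks is not stated. The replicate number was entered as a block only in alternative fits. The main fit, which gave the edgeR p-values where no other fit is named, did not pair the libraries.

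The members and gene lists were chosen with earlier results of these data known. The rule named 38 members always, and added those past the threshold in any contrast, the largest change per complex and contrast at 5 CPM or more, and the highest and lowest member of each complex by FPKM. Members named outside it, and single genes of the lists, were chosen after their values were seen. Shared sequence was counted in 50-base words of GENCODE M21 transcripts. The values of 1 member are not reported here, and it stays in the counts and medians.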

Additional observations from a re-analysis of the deposited data

How the results depend on the processing

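Over 26 alternatives, no value past a threshold reversed. The count of members called in KO against WT on the high fat diet was 3. It was 12 with DESeq2 (12.7% of all genes called), 7 with limma on log2 FPKM at pseudocounts of 1 or 0.1 (6.98% and 7.02%), 5 with totals that leave out insulin and mitochondrial genes (7.75%), 5 with offsets for either gene length or exon-union length (8.42% and 8.63%), 1 without HFD KO 2 and STD WT 3 (4.71%), and 0 with the compared groups alone (3.19%). It ran from 0 (without HFD WT 3) to 51 (without HFD KO 3) when 1 library was left out, and was 1 without HFD KO 1, HFD KO 2 or HFD WT 1. Of all genes, 1189 were called there, beside 513 with the compared groups alone, 2033 with DESeq2, 757 without HFD KO 2 and STD WT 3, 766 without HFD WT 1, 763 without HFD KO 2, 533 without HFD WT 3, 527 without HFD KO 1 and 2917 without HFD KO 3.

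The median of the nuclear members there, 0.46, was 0.15 with length offsets, 0.13 with these and the block, 0.0607 with these and without HFD KO 2, and 0.17 (without HFD KO 2) to 0.72 (without HFD KO 3) when 1 library was left out. In high fat against standard diet in the KO, the median of 0.51 was 0.22 with block and length offsets and 0.17 with length offsets without HFD KO 2. With limma it was 0.29 at either pseudocount, where the median of all genes was -0.17 (pseudocount 1) and -0.20 (0.1). It was 0.26 without HFD KO 2 and STD WT 3, and 0.27 (without HFD KO 2) to 0.76 (without HFD KO 3) when 1 library was left out. Members called there were 1 with DESeq2 and 0 to 44 (without HFD KO 3) when 1 library was left out. In the interaction, the median of 0.52 was 0.21 with length offsets, alone or with the block, 0.0948 with these and without HFD KO 2, and 0.23 to 0.77 when 1 library was left out, and DESeq2 called 1 member. With offsets for exon-union length, the medians of these comparisons, in the same order, were 0.28, 0.31 and 0.25.

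The median of the mitochondrially encoded members in high fat against standard diet in the KO, 0.26, was -0.0490 with length offsets without HFD KO 2 and -0.0230 with exon-union length. In the interaction it was 0.17, and -0.13 without HFD KO 2 and STD WT 3, -0.14 with length offsets without HFD KO 2, -0.13 with exon-union length and -0.0944 (without HFD KO 2) to 0.34 (without STD KO 3) when 1 library was left out. The causes of these shifts were not tested. The exon-union length, the length offsets without HFD KO 2 and the sets of mitochondrial genes with under 10% of shared sequence were added after the data were seen.

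With the replicate block, 3 members were called in KO against WT on the high fat diet (8.19% of all genes) and 0 in each of the other comparisons, where the numbers did not pair the libraries (r of -0.351 to 0.171). With 3 libraries a group, low members such as Cox4i2 and Cox7a1 had SEs too wide to place them.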

Other observations

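Of the genes whose names match the rule, 12 were not protein coding in the annotation and were left out. Of these, 9 held 0 counts and Atp5l2-ps held 12. Ndufb4c, a processed pseudogene, held 454 counts over the 12 libraries. Ndufb1-ps, annotated as a non-coding gene, held 7770, from 430 to 1362 per library.

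Sequence overlap touched further members. Of the exon bases of Ndufb6, a complex I accessory subunit, 39% are shared with Smim27 on the other strand. Its fold change on the high fat diet was 0.70 on the log2 scale (edgeR adjusted p = 0.186).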
